A study of Mus musculus with 10 samples.

Results

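Gpx5, Adam7, Lcn5, Lcn8, Lcn9, Lcn10, Cst8, Cst11, Crisp1 and Rnase10 are genes best known for secreted or sperm-surface proteins of the epididymis, and their transcripts were followed here in RNA from mouse visceral fat. The 10 genes were matched by symbol among the 56691 genes of the count table. They were selected on their read counts, because several of them stood apart in 1 library of each genotype, WT3 and tg5, so the levels in those libraries are described below without a test. RNA of 10 male mice, 10 weeks old and fed chow for 8 weeks, was sequenced as poly(A)-selected libraries, 1 per mouse. In the WT group (WT1 to WT5) the labels name no transgene, and in the aADM2-tg group (tg1 to tg5) the mice overexpress adrenomedullin 2, a peptide hormone of the calcitonin family, in adipose tissue. The sources used here do not name the promoter driving the transgene, the strain or the exact fat depot. The labels name mature adipocytes as the cell type and visceral adipose tissue as the source. All 10 adipocyte markers were detected in every library, with a summed level of 35115 to 48177 counts per 1e6 counted reads (CPM).

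The epididymis is the coiled duct in which sperm leaving the testis mature. Its epithelium secretes antioxidant enzymes, lipocalins, defensins, protease inhibitors and sperm-coating proteins in regional patterns along the duct. In male mice the gonadal fat pad lies against the epididymis.

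Counted reads numbered 16030435 to 18214504 per library, and a count of 0 allows up to 3 counts, or 0.165 to 0.187 CPM depending on the library. Intervals and this limit cover counting error only, since the reads carry no molecular identifiers. One header line of the table names the columns in the opposite sense to the labels (control names over the libraries labelled aADM2-tg), so each direction between genotypes rests on the labels. Adm2, the gene to be overexpressed, could not check them: it had 2 counts in WT3 and 0 in every other library, those labelled aADM2-tg included. In bulk RNA, fewer cells of a type and less RNA per cell cannot be told apart. Libraries are separate mice per the design text, and p-values measure the spread between them.

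Promoter sequences of 4 members are shown because these genes share a tissue of expression yet behaved differently in the fat libraries: Gpx5 and Lcn5 were high in WT3 and tg5, Lcn8 lies just beside Lcn5 and was near 0, and Cst8 followed another pattern. Each window runs from 250 bases before to 50 after the annotated start, from RefSeq on GRCm38.p6, written 5′ to 3′ on the gene's strand, and capitals mark a TATAAA match. The windows are chr13:21292637-21292936 on the minus strand for Gpx5, chr2:25657702-25658001 on the plus strand for Lcn5, chr2:25652868-25653167 on the plus strand for Lcn8 and chr2:148798589-148798888 on the plus strand for Cst8.
Gpx5: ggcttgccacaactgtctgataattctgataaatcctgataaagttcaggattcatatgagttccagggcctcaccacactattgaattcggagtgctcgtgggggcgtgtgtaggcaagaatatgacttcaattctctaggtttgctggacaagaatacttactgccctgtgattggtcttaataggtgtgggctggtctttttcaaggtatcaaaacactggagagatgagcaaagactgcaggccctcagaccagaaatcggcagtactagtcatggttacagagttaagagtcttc
Lcn5: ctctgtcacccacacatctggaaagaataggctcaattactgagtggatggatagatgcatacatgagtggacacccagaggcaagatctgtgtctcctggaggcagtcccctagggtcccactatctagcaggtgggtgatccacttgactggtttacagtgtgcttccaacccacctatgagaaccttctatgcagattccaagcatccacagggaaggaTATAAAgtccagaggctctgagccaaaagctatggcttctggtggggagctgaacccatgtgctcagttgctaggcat
Lcn8: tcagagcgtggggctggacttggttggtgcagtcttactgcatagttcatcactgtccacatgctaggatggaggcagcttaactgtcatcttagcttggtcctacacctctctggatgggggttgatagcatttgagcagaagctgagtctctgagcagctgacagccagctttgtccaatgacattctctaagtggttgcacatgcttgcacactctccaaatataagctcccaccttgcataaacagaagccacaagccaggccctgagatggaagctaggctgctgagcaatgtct
Cst8: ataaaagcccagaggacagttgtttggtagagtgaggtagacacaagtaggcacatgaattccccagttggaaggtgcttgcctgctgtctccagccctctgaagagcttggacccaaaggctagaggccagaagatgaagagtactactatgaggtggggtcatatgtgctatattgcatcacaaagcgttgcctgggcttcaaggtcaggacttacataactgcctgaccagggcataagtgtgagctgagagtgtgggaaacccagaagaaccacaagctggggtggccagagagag
Lcn5 carried TATAAA on its own strand with the first base at position -28 from the start, and the Gpx5, Lcn8 and Cst8 windows held no such match. Across 32851 RefSeq promoter windows, 8.32% held TATAAA on the gene's strand. Among the 10 members 8 had a RefSeq window, and that of Crisp1 also held TATAAA on the gene's strand, at position -31. A match or its lack says only which letters stand in the window.

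Gpx5 (ENSMUSG00000004344, chr13:21470599-21476901 on the minus strand in the file's coordinates, whose build is not given) encodes a secreted glutathione peroxidase without selenocysteine that protects sperm from oxidation. Its counts in WT1 to WT5 were 15, 13, 2309, 0 and 80. In tg1 to tg5 they were 0, 0, 7, 7 and 2477. WT3 and tg5 were therefore high, WT5 was intermediate, and the other libraries were at or near 0, with the genotypes overlapping fully. On the scale of depth this was 136 CPM in WT3, 148 CPM in tg5 and 4.49 CPM in WT5. Per exonic length, Gpx5 reached 81.5 fragments per kilobase per 1e6 reads (FPKM) in WT3 and 88.2 FPKM in tg5, levels above those of 99.3% of all genes in each library.

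Adam7 (ENSMUSG00000022056, chr14:68734785-68771190, minus strand) encodes a membrane protein of the ADAM family that lacks protease activity and is passed to sperm. Its counts were 19, 33, 763, 20 and 123 in WT1 to WT5. The transgenic libraries tg1 to tg5 held 0, 179, 0, 5 and 883. The same libraries led, but tg2 also held Adam7 reads while it had none of Gpx5. Set against tg5, the Adam7 level was 20.7% in tg2 and 13.1% in WT5, and per length it was 10.4 FPKM in WT3 and 12.2 FPKM in tg5.

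Lcn5 (ENSMUSG00000026937, chr2:25547964-25551989, plus strand) encodes a lipocalin that binds retinoic acid in the duct lumen. Counts were 5, 7, 665, 0 and 31 in WT1 to WT5. In tg1 to tg5 they were 0, 1, 0, 6 and 1135. Its order over the libraries was that of Gpx5 at the top, with tg5 first, WT3 next and then WT5, and tg2 held 1 read. Levels per length were 44.6 FPKM in WT3 and 76.7 FPKM in tg5.

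The remaining lipocalins were scarcely detected. Lcn8, which encodes a lipocalin of the initial segment, had 0, 3, 3, 1 and 0 counts in WT1 to WT5 and 2, 0, 0, 0 and 1 in tg1 to tg5. Lcn10 had 1 count in WT3 and 0 elsewhere, and Lcn9 had 0 in every library. No library exceeded the limit that a count of 0 allows for any of these 3 genes. Lcn8 lies 1735 bases from Lcn5 on the same strand, so neighbours of the lipocalin cluster differed widely in level within the same libraries. Lcn6, another epididymal lipocalin of the cluster, reached 0.437 FPKM in WT3 and 0.147 FPKM in tg5.

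**Figure D1:**
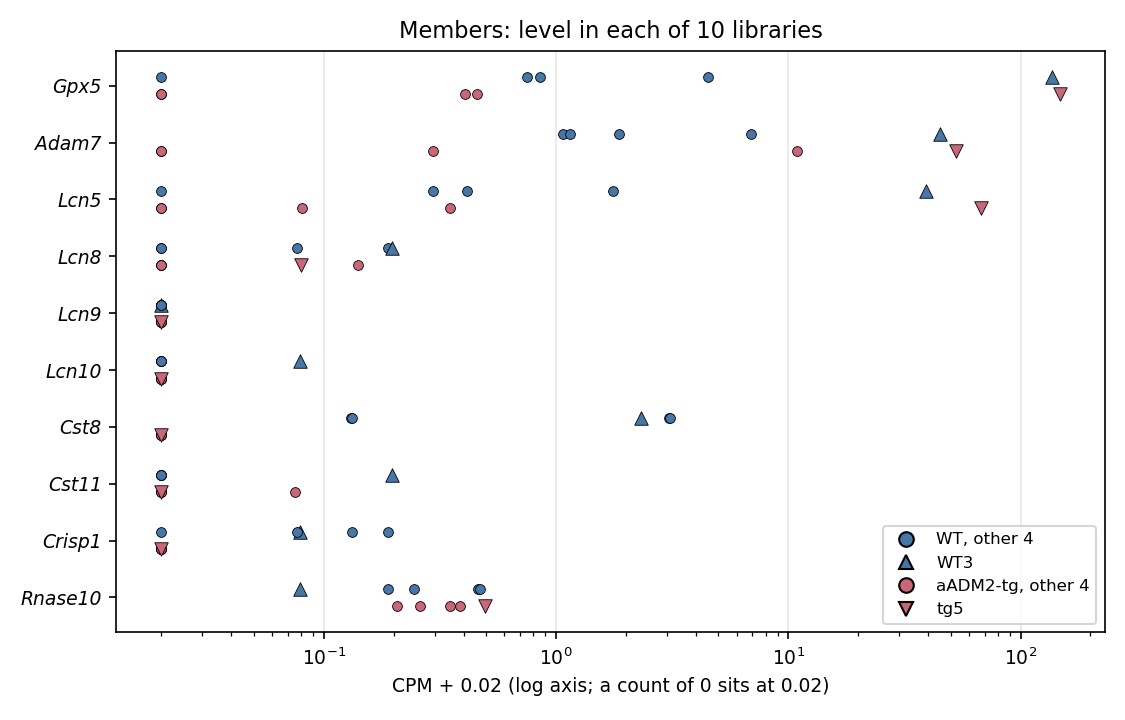
Level of each of the 10 genes (members) in each library, as CPM plus 0.02 on a log axis; each point is 1 library, blue for WT and red for aADM2-tg, with triangles for WT3 and tg5. Gpx5, Adam7 and Lcn5 peak in WT3 and tg5, Adam7 is also present in tg2 at 10.9 CPM, and Cst8 is seen in WT libraries only.

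**Figure D2:**
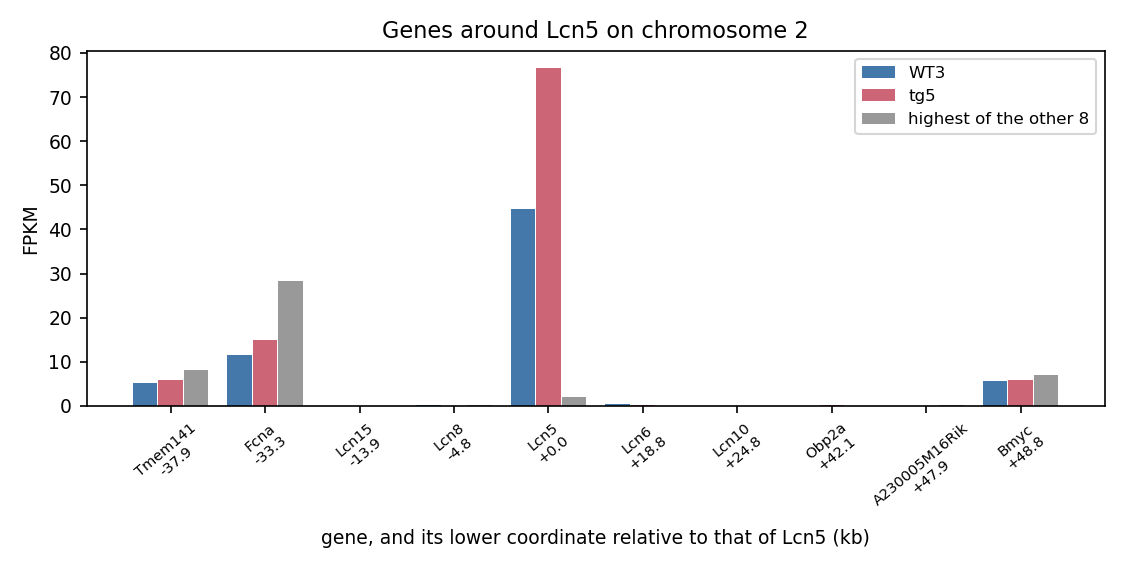
FPKM (bars) in WT3, in tg5 and in the highest of the other libraries for genes around Lcn5, ordered along the chromosome, with their distance from Lcn5 in kb under each name. Lcn5 stands at 44.6 and 76.7 FPKM in WT3 and tg5, while Lcn8, Lcn6 and Lcn10 stay below 0.5 FPKM.

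Cst8 (ENSMUSG00000027442, chr2:148640705-148647515, plus strand) encodes a cystatin-related protein of the initial segment that male germ cells in the testis also make. It had 2, 54, 39, 2 and 55 counts in WT1 to WT5 and 0 in each of tg1 to tg5. WT2, WT3 and WT5 were high, WT1 and WT4 were low, and no transgenic library held a read. The counts of the genotypes did not overlap, but the 2 counts of WT1 and of WT4 are under the limit that a count of 0 allows, so these libraries cannot be told from the transgenic ones at this depth. This pattern differs from that of Gpx5, since tg5 held no Cst8 and WT2 exceeded WT3.

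The last 3 members were low throughout. Crisp1, which encodes a cysteine-rich protein that coats sperm, had 0, 3, 1, 1 and 2 counts in WT1 to WT5 and 0 in tg1 to tg5. Cst11, a cystatin-family gene of the epididymis, had 3 counts in WT3 and 1 in tg4. Rnase10, a ribonuclease A family gene of the initial segment, had 8, 4, 1, 8 and 3 counts in WT1 to WT5 and 4, 6, 3, 6 and 8 in tg1 to tg5. Rnase10 was thus lowest in WT3 and shared the highest count between WT1, WT4 and tg5, unlike Gpx5.

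The share of a gene's summed CPM that WT3 and tg5 held together describes how sharply it stood apart. It was 97.6% for Gpx5, 97.4% for Lcn5 and 81.5% for Adam7. Cst8 held 26.6% there and Rnase10 18.2%, close to the median of 20.3% over all genes with at least 10 counts. At or above 80% stood 90 of those 25150 genes, which is 0.358%, and Gpx5, Lcn5 and Adam7 were among them by the choice of the members. At or above 90% stood 54 genes (0.215%), Gpx5 and Lcn5 among them.

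The libraries standing apart did not carry the members in the same proportion. Lcn5 was 1.72 times as high in tg5 as in WT3 (95% counting interval 1.56 to 1.90), against 1.08 times for Gpx5 (1.02 to 1.15) and 1.17 times for Adam7 (1.06 to 1.29). The Lcn5 interval lay above those of both others. In WT5 the Adam7 level was 0.153 of that in WT3 (0.126 to 0.186), while Gpx5 stood at 0.0329 (0.0260 to 0.0412) and Lcn5 at 0.0443 (0.0299 to 0.0635). Relative to WT3, Adam7 was therefore more abundant in WT5 and tg2 than Gpx5 and Lcn5 were.

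**Figure D3:**
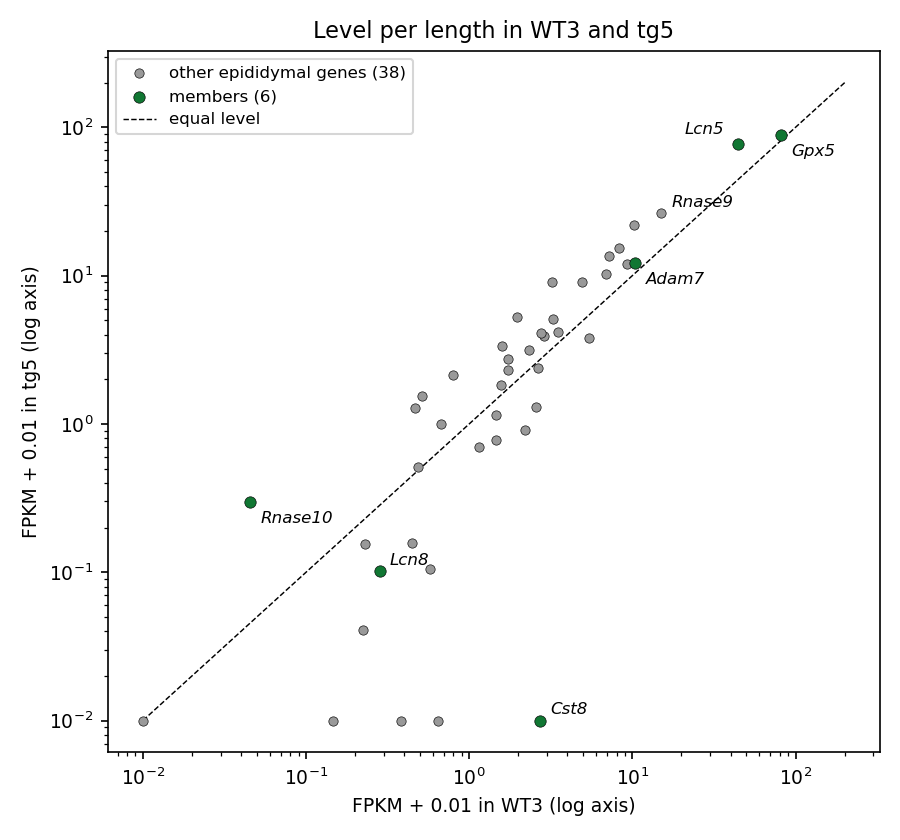
FPKM plus 0.01 in tg5 against WT3 on log axes, for the 6 members and 38 other epididymal genes with at least 10 counts, with a line of equal level. Lcn5 and Rnase9 lie above the line, Gpx5 and Adam7 close to it, and Cst8 at 0 in tg5.

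A list of 54 other genes of the epididymis, none of them a member, was examined in the same libraries. Of these, 38 had at least 10 counts in all and 16 did not, 7 of them being at 0. A gene could reach 10 counts through WT3 and tg5 alone, so a share over the 38 is partly set by that minimum, and the genes with the most counts are described instead. Rnase9, a ribonuclease A family gene, had 302 counts in WT3, 524 in tg5, 14 in WT5, 2 in each of WT1 and WT2, and 0 in the other libraries. Spink11 and Spink8, Kazal-type protease inhibitor genes, had 290 and 115 counts in WT3 and 427 and 213 in tg5. The defensin genes Defb30 and Defb12 had 161 and 159 counts in WT3 and 305 and 205 in tg5.

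Spag11b, a defensin-like gene, went the other way between these libraries, with 160 counts in WT3 and 111 in tg5 (0.699 times as high in tg5, interval 0.544 to 0.897). Wfdc8, a whey acidic protein family gene, was more spread out: 94 counts in WT3 and 109 in tg5 stood beside 35 in WT2, 27 in WT4 and 32 in tg2, a share of 65.1%. Teddm1b had 118 and 173 counts in WT3 and tg5 and 22 in tg2. Over the 34 genes with at least 10 counts in all and reads in both libraries, the tg5 level was the higher in 23, with a median ratio of 1.35. The same share over all genes was not computed, so this is a description only.

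The summed level of the 54 genes was 119 CPM in WT3, 174 CPM in tg5 and at most 12.8 CPM in any other library, which was tg2. For the 10 members the sums were 224 CPM in WT3, 268 CPM in tg5, 16.5 CPM in WT5 and 11.3 CPM in tg2. WT1, WT4, tg1, tg3 and tg4 held between 0.360 and 2.71 CPM of the members.

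Lists for germ cells and for the efferent ducts followed other orders over the libraries. Germ cell genes (18 of 18 detected) summed to 58.7 to 394 CPM in WT and 59.7 to 87.2 CPM in aADM2-tg libraries. The sperm chromatin genes Prm1 and Tnp1 had 283 and 348 counts in WT3 and 0 in tg5. Genes of the efferent ducts and of motile cilia (22 of 22 detected) summed to 120 to 509 CPM in WT and 121 to 639 CPM in aADM2-tg libraries. The cilia regulator Foxj1 had 633 counts in WT3 and 1 in tg5, while the dynein gene Dnah5 had 522 and 0.

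As a whole, the germ cell list stood at 344 CPM in WT3 and 68.3 CPM in tg5, and the efferent duct and cilia list at 487 and 131 CPM. Most of the tg5 sums came from a few genes present in all 10 libraries. Odf2 of the sperm tail held 54.2 of the 68.3 CPM, and Esr1 and the tubulin-binding protein gene Tppp3 held 64.7 and 47.7 of the 131 CPM. Counts in WT3 and tg5 were 1597 and 909 for Odf2, 2014 and 1086 for Esr1, and 723 and 801 for Tppp3. Among genes of epididymal cell types, which are not secretory products, Foxi1, a regulator of ion-transporting clear cells, had 9 counts in each of WT3 and tg5 and 0 elsewhere. Foxi1 was the 1 gene of this list, of 10 with at least 10 counts, that held over 80% of its CPM there, and 9 held under 50%. Among those 9, Atp6v1b1 had 3 counts in WT3, 1 in tg5 and 5 in WT5. Car2 had 160 in WT3, 32 in tg5 and 273 in tg2. Of the basal cell genes, Krt5 had 1 count, in WT3, while Trp63 was present in all 10 libraries, with 146 counts in WT3 and 96 in tg5. Slc26a3 and Pax2 had 268 and 41 counts in WT3 and 1 and 4 in tg5. The part of any cell type in the levels of the members was not tested.

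Seminal vesicle genes (8 of 10 matched) were low but highest in the same libraries, with 1.97 CPM in tg5, 1.89 CPM in WT3, 1.70 CPM in tg4 and at most 0.225 CPM elsewhere. Ceacam10 made up most of that in WT3 and tg5 with 29 and 33 counts. The genes Svs4, Svs5 and Svs3a of this list did not follow: they were highest in tg4, with 13, 11 and 4 counts. In tg5 each was at 0, and in WT3 they had 0, 3 and 0 counts. Svs3b and Pate14 were at 0. Prostate genes summed to 1.27 to 66.8 CPM in WT and 0.824 to 129 CPM in aADM2-tg. The matrix protease gene Mmp7 alone made up 65.0 of 66.8 CPM in WT2 and 127 of 129 CPM in tg2, with 0 counts in tg5, and the prostate secretory gene Pbsn was at 0. Somatic testis genes summed to 14.8 to 41.8 CPM over the libraries.

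**Figure D4:**
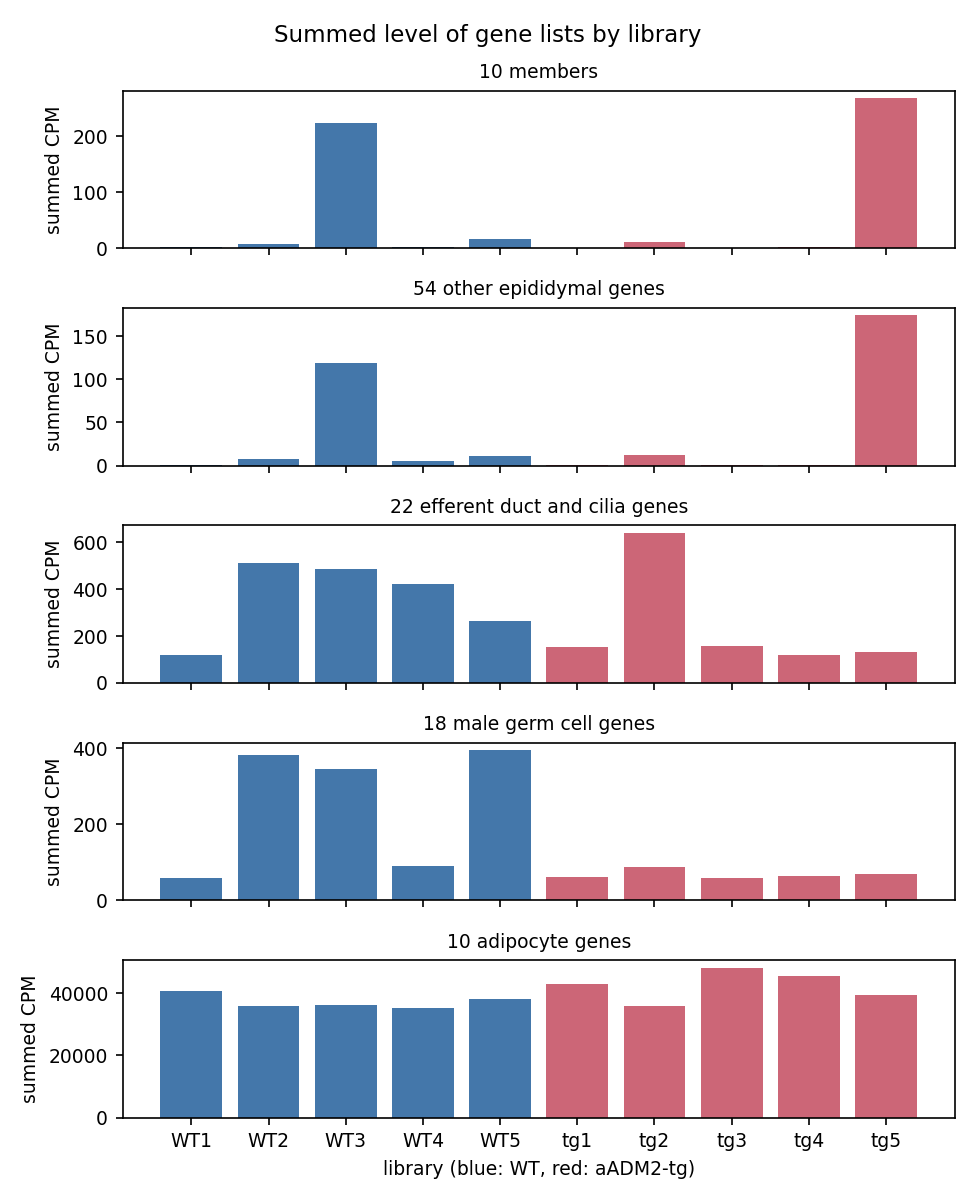
Summed CPM (bars) in each library, WT in blue and aADM2-tg in red, for the members, other epididymal genes, efferent duct and cilia genes, germ cell genes and adipocyte genes, each panel with its own linear axis from 0. The members and the other epididymal genes peak in WT3 and tg5, whereas the germ cell list is low in tg5 at 68.3 CPM and high in WT2, WT3 and WT5.

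The design compares the genotypes, and this contrast is not the one by which the members were chosen. Across the 25150 tested genes, 4735 (18.8%) were called at an adjusted p under 0.05 by edgeR's quasi-likelihood test, 2233 (8.88%) higher and 2502 (9.95%) lower in the libraries labelled aADM2-tg. Of the 10 members 6 had the 10 counts needed for the test, and 1 of them, Cst8, was called, as lower. Lcn9, Lcn10, Cst11 and Crisp1 were not tested in this fit.

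Cst8 averaged 1.73 ± 1.51 CPM in WT (SD, n = 5) and was at 0 in all 5 aADM2-tg libraries (edgeR adjusted p = 0.0194). The pooled WT level, 1.72 CPM, was 48.3 times the limit of 3 counts over the transgenic group. That ratio takes in neither the counting error in WT nor the spread between mice, so it is no lower bound on the genotype difference. An exact two-sided permutation test of log2(CPM + 1) gave p = 0.00794, the smallest that 5 against 5 allows, and it rests in part on the 2 counts in each of WT1 and WT4. Without WT3 and tg5 the edgeR adjusted p was 0.0662, with WT2 and WT5 still at 54 and 55 counts and every remaining transgenic library at 0.

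Cst8 moved with the germ cell list. In the same edgeR fit 12 of the 18 germ cell genes were lower and 0 higher, beside 9.95% lower and 8.88% higher over all genes. The median log2 difference of that list was -4.42 against -0.02 over all genes. Crisp2, a CRISP-family gene of sperm, had 8, 416, 365, 25 and 430 counts in WT1 to WT5 and 4, 13, 1, 1 and 0 in tg1 to tg5 (log2 difference -5.84, edgeR adjusted p = 0.00873). Of the neighbouring cystatin genes on chromosome 2, Cst13 was lower in aADM2-tg: it had 0, 12, 26, 3 and 12 counts in WT1 to WT5 and at most 2 in a transgenic library (log2 difference -3.75, edgeR adjusted p = 0.0373). Cst12, which lies 5239 bases from Cst8, had 0, 4, 7, 1 and 4 counts in WT1 to WT5 and 0 in aADM2-tg and did not pass (edgeR adjusted p = 0.0560), nor did Cst9 (edgeR adjusted p = 0.0590). Cst3, further along the same cluster, was higher in aADM2-tg (log2 difference 0.52, edgeR adjusted p = 0.0131). The part of germ cell RNA in the Cst8 difference was not tested.

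Gpx5 averaged 28.5 ± 60.4 CPM in WT and 29.7 ± 65.9 CPM in aADM2-tg (SD, n = 5; log2 difference 0.16 with a standard error of 1.86, edgeR adjusted p = 0.962). For Adam7 the means were 11.2 ± 19.1 and 12.8 ± 22.8 CPM (log2 difference 0.27, standard error 1.51, edgeR adjusted p = 0.925). Lcn5 averaged 8.34 ± 17.3 and 13.6 ± 30.2 CPM (log2 difference 0.81, standard error 1.88, edgeR adjusted p = 0.802). For these 3 genes the SD exceeded the mean in both genotypes and 1 library per group held most of the reads, so the spread between libraries was larger than the difference between genotypes.

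These differences moved most when WT3 or tg5 was left out. Without WT3 the Gpx5 log2 difference was 4.34 (edgeR adjusted p = 0.209), and without tg5 it was -6.92 (edgeR adjusted p = 0.0684). Lcn5 moved from 4.53 without WT3 (edgeR adjusted p = 0.200) to -6.14 without tg5 (edgeR adjusted p = 0.0757), and Adam7 from 2.26 to -1.98. The Gpx5 sign also changed, at values near 0, when another WT library was left out. It was -0.15 to -0.12 without WT1, WT2 or WT5 and -0.16 without WT4. Leaving out such a library raises the weight of WT3 in the WT group, so these values do not show that the sign rests on other libraries. Rnase10 (log2 difference 0.30, edgeR adjusted p = 0.734) and Lcn8 (log2 difference -0.93, edgeR adjusted p = 0.615) were not called. Crisp1, with 7 reads in all, gave an unadjusted exact permutation p of 0.0476, and each library was at or under the limit that a count of 0 allows.

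**Figure D5:**
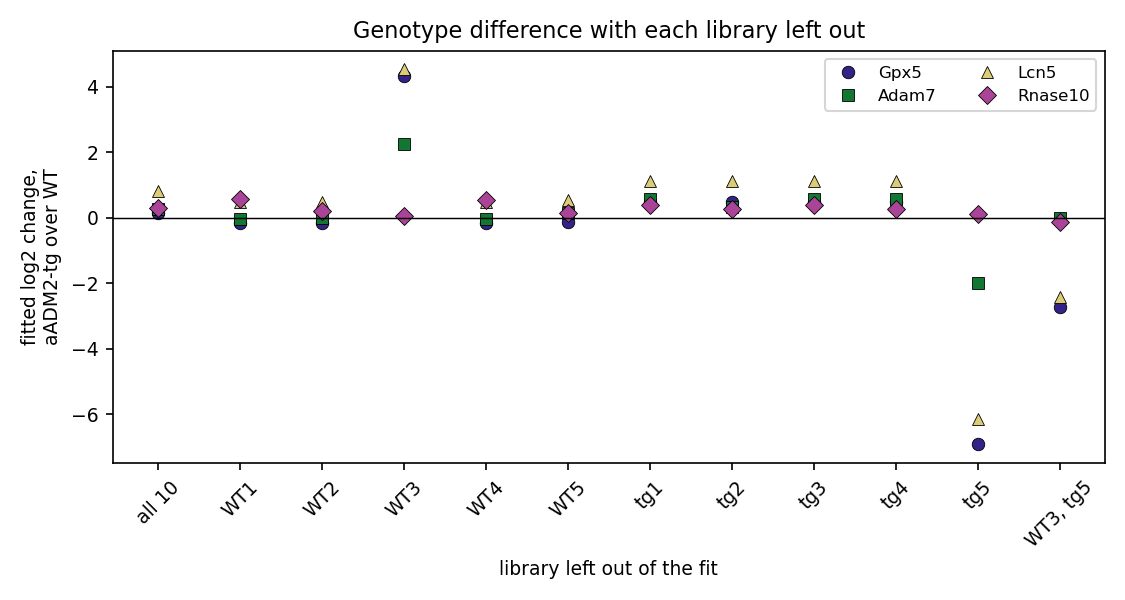
Fitted log2 difference of aADM2-tg over WT (vertical axis) for Gpx5, Adam7, Lcn5 and Rnase10 with all libraries, with each library left out, and without both WT3 and tg5 (horizontal axis). Gpx5 spans -6.92 to 4.34 and Lcn5 -6.14 to 4.53, with the extremes at tg5 and WT3.

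Of the 38 tested genes of the wider epididymal list, 0 were called higher and 0 lower by edgeR, beside 8.88% and 9.95% of all genes. An unadjusted p under 0.05 was found for 1 of them, and DESeq2 called 0 of the 12 for which it gave an adjusted p. In 24 of the 38 genes WT3 and tg5 held at least 80% of the CPM, a wide spread within each genotype, so 0 calls do not show equal levels. The median log2 difference of the 38 genes was 0.43, against -0.02 over all genes. WT3 and tg5, 1 library of each genotype, held a median of 86.3% of the CPM of these genes, a share partly set by the minimum of 10 counts. The part of those libraries in the median difference was not tested.

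Relatives of the members in the same protein families gave levels for comparison per length. Among lipocalin genes, Rbp4, the plasma retinol carrier, averaged 260 FPKM over the 10 libraries and Orm1 189 FPKM, both more than the peak of Lcn5. Lcn2, the next by level per length, averaged 14.1 FPKM, below that peak, and varied from 25 counts in tg3 to 2021 in tg2. Gpx3, the plasma glutathione peroxidase, averaged 617 FPKM and Gpx4, which reduces lipid peroxides, 271 FPKM, so Gpx5 at its peak stayed below either. Cst3, the widely secreted cystatin C, averaged 351.5 FPKM, Rnase4 106 FPKM and Adam9 38.4 FPKM. These relatives were present in every library, as was Rnase10 alone among the members. In the genotype fit, beside 8.88% of all genes higher and 9.95% lower, 1 of 9 tested lipocalin genes was higher and 0 lower, 3 of 6 glutathione peroxidase genes were higher and 1 lower, 2 of 7 cystatin genes were higher and 1 lower, and 1 of 8 ADAM genes was higher and 6 lower. Among these 6 were Adam2, Adam3 and Adam5, genes of sperm surface proteins, which were highest in WT2, WT3 and WT5 like the germ cell list. Adam3 had 170, 209 and 163 counts there and at most 9 in an aADM2-tg library. Of 4 CRISP genes 0 were higher and 1, Crisp2, was lower. None of 7 ribonuclease A family genes was called by edgeR, with 0 at an unadjusted p under 0.05 and 0 called by DESeq2.

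By the fixed measure of likeness, Pearson's r over the 10 libraries with the mean standardised profile of the members, the most similar genes were Cyp4f14 (r = 0.93), Mtus2 (r = 0.92) and Defb19 (r = 0.91). The 10 most similar genes held none of the 54 epididymal genes. Of the 9 members with a read, 3 had fewer than 10 reads in all, and each weighed as much as Gpx5 in that mean. Likeness to Gpx5 alone, a measure chosen after seeing the data, ranked Pate13 (r = 0.97), Rnase9 (r = 0.97), Pate6 (r = 0.97) and Defb30 (r = 0.97) first, and 7 of its 10 most similar genes were in the epididymal list. These correlations share the same libraries and depths and are given as descriptions.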

How the data were processed

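Visceral fat of 10 male mice gave 1 poly(A) RNA library each. HISAT2 2.2.1 and HTSeq 0.6.1 are listed in the submitters' processing notes. Build, annotation and strandedness: not given in the sources used here. The deposited count columns hold raw reads per gene per the file headers. The deposited FPKM columns are the authors' counts per kilobase of exonic length and 1e6 counted reads. FPKM recomputed from the counts was within 0.01 of the deposited values for the members in 7 libraries, and 3 further per-sample columns were not used. The columns of tg3, tg4 and tg5 could be tied to their group but not to a single sample, and those of tg3 and tg5 share a library identifier.

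Genes with at least 10 counts over all libraries were fitted in R 4.3.3 with edgeR 4.0.16 (TMM scaling, quasi-likelihood test, Benjamini-Hochberg adjustment over all 25150 genes, threshold 0.05), and the script was tested on simulated data. CPM are per 1e6 counted reads, and printed FPKM were computed from the counts and exonic lengths. Shares and ratios have exact 95% counting intervals. Alternatives were filterByExpr, at least 1 count, DESeq2 size factors, DESeq2 1.42.0, a replicate block, each library left out, WT3 and tg5 left out, and an exact permutation test of log2(CPM + 1).

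The members and lists were chosen with earlier results of these data known. Named besides the members were the 8 genes of the wider epididymal list with the most counts, up to 3 genes per family by level per length, neighbours, and the genes most like the members by correlation of log2(CPM + 0.1) among genes with at least 30 counts. Spread-out or contrasting marker genes of the other lists were named after their values were seen. A result of 1 marker list and 1 motif search are not reported here. Promoters are from RefSeq on GRCm38.p6. Plots used matplotlib 3.10.9 (Python 3.11.15).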

Additional observations from a re-analysis of the deposited data

Results flagged for a closer look

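Within each genotype of 5 libraries, a value is listed here when the gap to its nearest neighbour exceeded 0.71 of the group's range (Dixon's 95% critical value). Chance lists about 1 in 20 groups if values are normally distributed, which sparse counts are not. A group with reads in 1 library alone is always listed. Of 17 groups of values examined, 11 were listed, and the members were chosen because WT3 and tg5 stood apart, so the count is no support for that. Gpx5 was far above the rest at 136 CPM in WT3 and 148 CPM in tg5. Adam7 was listed at 45.1 CPM in WT3 and 52.6 CPM in tg5, and Lcn5 at 39.3 CPM in WT3 and 67.6 CPM in tg5. The summed level of the wider epididymal list was 119 CPM in WT3 and 174 CPM in tg5. The others rest on 3 reads or fewer, with no read in any other library of the group: Lcn10 at 0.0591 CPM in WT3, Cst11 at 0.177 CPM in WT3 and Cst11 at 0.0549 CPM in tg4. The cause of none of these values was tested.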

How the results depend on the processing

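Of 89 recomputed genotype differences of single members, 69 kept their direction and their side of the threshold, 19 changed sign and 1 was no longer called. Cst8 was the last, with an adjusted p of 0.0662 without WT3 and tg5; with single libraries left out its adjusted p was 0.0126 to 0.0457. Sign changes concerned differences that were not called. Without WT3 and tg5 the log2 difference was -2.73 for Gpx5, -2.42 for Lcn5 and -0.14 for Rnase10. The permutation scale gave -0.60 for Gpx5, -0.50 for Adam7 and -0.20 for Lcn5. With the replicate block the values were -1.15 for Gpx5, -0.27 for Adam7 and -0.50 for Lcn5. The block took the numbers of tg3, tg4 and tg5 from column names that could not be tied to single samples, so their places in it are uncertain. Leaving out single libraries gave -6.92 to 4.34 for Gpx5, -1.98 to 2.26 for Adam7, -6.14 to 4.53 for Lcn5 and 0.04 to 0.58 for Rnase10. The cause was not tested.

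Over all genes, 880 were called higher and 1158 lower without WT3 and tg5, against 2233 and 2502 with them, and 1964 of those 2038 calls were among the 4735. Single libraries left out gave 1164 to 3340 higher and 1497 to 4266 lower: higher calls numbered 1164 without WT2, 1312 without WT3, 1246 without WT5, 1402 without tg3 and 1396 without tg4, and lower calls 1497 without WT2 and 4266 without tg2. The replicate block gave 1858 higher and 2480 lower. Deviations of same-numbered libraries from their group means had correlations of -0.218 to 0.425. The numbers of tg3, tg4 and tg5 rest on column names alone. Differently numbered libraries were not compared, so these correlations cannot decide whether the numbers pair the libraries. A share of at least 90% in WT3 and tg5, a limit chosen after seeing the data, was met by 54 genes in place of 90. DESeq2 gave no adjusted p for Gpx5, Lcn5 and Lcn8, and filterByExpr kept none of Lcn5, Lcn8, Cst8 and Rnase10. Depth limits what can be said of Lcn8, Lcn9, Lcn10, Cst11 and Crisp1.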

Other observations

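The scan for genes with at least 80% of their CPM in WT3 and tg5 also held genes outside the members and the wider epididymal list. That list does not hold every gene of the epididymis, so standing outside it does not mark a gene as one of another tissue. In 68 of the 90 genes both libraries exceeded each of the other 8, and 54 of the 68 had a symbol that is not a predicted one: 3 members, 24 of the wider epididymal list and 27 others, of which Foxi1, Ceacam10 and Rnase13 stand in another list and 24 in none. A gene seen in WT3 and tg5 alone can reach the minimum of 10 counts through them. Among the genes in no list, chosen after their values were seen, were the amino acid transporter gene Slc38a5 with 454 counts in WT3 and 538 in tg5, the PATE family genes Pate13 (324 and 526) and Pate6 (208 and 281), and the complement regulator gene C4bp (217 and 321). The mucin genes Muc15 (167 and 191) and Muc5b (97 and 170), the carboxylesterase gene Ces5a (127 and 210) and the serpin gene Serpina1f (107 and 162) followed. These counts are descriptions, with no test.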
